A study of Mus musculus with 12 samples.

Results

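The 7 genes Fgf5, Otx2, Pou3f1, Lef1, Cldn6, Tead2 and Sall2, which mark the epiblast of the implanted embryo, were followed in mouse embryonic stem cells (ESCs) before and after loss of the Polycomb protein Ring1B. They were taken as every probe set annotated to 1 of these symbols, which gave 10 probe sets for the 7 genes, out of 34945 probe sets with a single gene symbol and 16432 genes in the whole data set. A probe set is a group of short array probes whose signals are summed into 1 value for a transcript. All 10 probe sets exceeded 3.94, the 30th percentile of all log2 signals, on at least 1 array and were kept.

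The epiblast gives rise to the body of the embryo. Before implantation its cells, and the ESCs derived from them, are in a naive state held by factors such as Klf4 and Esrrb, and after implantation they pass to a formative and then a primed state in which they can answer signals for the germ layers. Otx2 and Pou3f1 (Oct6) are transcription factors that act in that passage, Fgf5 is the ligand used most often to mark it, Lef1 is a nuclear partner of beta-catenin in Wnt signalling, Cldn6 is a tight junction protein of the first epithelia, Tead2 is a DNA-binding partner of the Hippo effectors Yap and Taz, and Sall2 is a zinc finger factor of the family of Sall4. Ring1B is an E3 ubiquitin ligase of Polycomb repressive complex 1 and places a single ubiquitin on histone H2A at developmental genes.

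RNA was measured on 12 Affymetrix mouse arrays from 6 ESC lines of 129/B6 hybrid background, with 1 array after and 1 array before 4-hydroxytamoxifen (OHT) for each line. All 6 lines were Ring1A(-/-);Ring1B(fl/fl);Rosa26::CreERT2, so Ring1A was absent throughout and OHT (800 nM for 24 h, arrays on day 2) activated the Cre recombinase that removes endogenous Ring1B. The mock line carried an empty vector, with no Ring1 construct to replace endogenous Ring1B once it was removed. The mutant lines expressed 3xFlag-tagged Ring1B (I53S), in lines #1 and #4, or Ring1B (I53A), in line #1, whose changes lie on the surface that binds the E2 enzyme and remove the ubiquitin ligase activity. The WT lines #1 and #3 expressed tagged WT Ring1B. Each line is 1 stable transfectant selected with puromycin, the mock class and the I53A construct are 1 line each, and the cells were grown on irradiated embryonic fibroblasts or on gelatin, which of them for which array not being given. Values are given as log2 signals after quantile normalisation, and a change is OHT+ minus OHT- in log2 units. They rank samples within a probe set and not 1 gene against another.

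The cells carried the ESC markers on every array. The mean log2 level of 10 such markers lay between 11.44 and 11.63, Pou5f1 between 12.34 and 12.87 and Nanog between 12.36 and 12.72. Signals of Rnf2, the gene of Ring1B, do not check the deletion, since the constructs carry Ring1B sequence and the sources used here do not place its probe sets relative to the deleted part. Its brightest probe set changed by -0.23 in the mock line, by 0.01 to 0.16 in the mutant lines, and by 0.32 and 0.01 in WT #1 and #3. Markers of fibroblasts, the feeder cells, were not even between groups. Their summed linear signal over 17 genes was 7010 after and 4413 before OHT in the mock line, 2382 to 7888 after and 2223 to 4876 before OHT in the mutant lines, and 2378 to 2685 after and 2317 to 2444 before OHT in the WT lines. In bulk RNA of this kind, fewer cells of a type and less RNA per cell cannot be told apart.

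The promoters of the 2 genes that fell in the mutant lines are shown first, as the sequence context of these genes, with those of the members at either end of the range of CpG content beside them. Polycomb proteins in mammals are found mostly at promoters rich in CpG dinucleotides. Each sequence is the 250 bases upstream of the first start listed for the gene in RefSeq on GRCm38.p6, written 5' to 3' on the strand of the gene, with every CG in capitals. The motif searched was CG, which reads the same on both strands. Which of its starts a gene used in these cells was not measured. Lef1 (chr3:131110047-131110296, plus strand) holds 11 CG, Otx2 (chr14:48667645-48667894, minus strand) 6, Fgf5 (chr5:98253934-98254183, plus strand) 24 and Sall2 (chr14:52328671-52328920, minus strand) 0.
Lef1: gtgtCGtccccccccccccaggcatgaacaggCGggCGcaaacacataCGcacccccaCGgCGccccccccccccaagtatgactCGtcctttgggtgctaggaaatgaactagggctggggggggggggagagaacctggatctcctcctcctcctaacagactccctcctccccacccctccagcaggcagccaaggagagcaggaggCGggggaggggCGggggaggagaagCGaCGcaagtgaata
Otx2: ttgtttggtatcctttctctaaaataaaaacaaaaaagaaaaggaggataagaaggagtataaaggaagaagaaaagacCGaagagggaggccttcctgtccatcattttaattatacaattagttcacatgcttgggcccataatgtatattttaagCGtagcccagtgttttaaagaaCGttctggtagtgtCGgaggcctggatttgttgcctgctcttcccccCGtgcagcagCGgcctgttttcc
Fgf5: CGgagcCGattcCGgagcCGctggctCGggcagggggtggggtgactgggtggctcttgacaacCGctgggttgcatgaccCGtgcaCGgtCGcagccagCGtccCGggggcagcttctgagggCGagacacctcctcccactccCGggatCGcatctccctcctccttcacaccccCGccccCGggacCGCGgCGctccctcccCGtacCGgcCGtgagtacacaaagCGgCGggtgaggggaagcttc
Sall2: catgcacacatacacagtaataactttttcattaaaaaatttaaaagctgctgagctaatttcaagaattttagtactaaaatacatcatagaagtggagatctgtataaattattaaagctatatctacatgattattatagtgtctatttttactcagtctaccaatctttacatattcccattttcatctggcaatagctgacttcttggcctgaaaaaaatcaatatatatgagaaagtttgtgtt
Over all 32851 starts in that table the median was 6 CG in 250 bases, with quartiles of 2 and 16, and 92.1% of starts held at least 1. The window of Fgf5 was above 88% of them. Other listed starts gave 8, 14 and 9 CG for Otx2, 14, 6 and 5 for Lef1 and 6 for Sall2, and the single starts of Cldn6 and Tead2 gave 9 and 7. Of the 7 genes 6 had an entry, the exception being Pou3f1. Otx2 and Lef1, which moved alike on the arrays, thus had windows near or somewhat above the median of all genes.

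Of the 7 genes, Otx2 and Lef1 fell in the mutant lines on day 2 of OHT, and none of the other 5 passed the test in any comparison. They were also the members whose signal was lower after than before OHT in all 6 lines, WT lines included. In the mock line Lef1 had the change of greatest size among the members, to 0.40 of its level before OHT, but with a single mock line it did not pass the test. No difference in OHT change between the mock and the mutant lines passed the test over all genes. For Sall2 alone the 95% interval of that difference, before adjustment, left out 0.

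**Figure D1:**
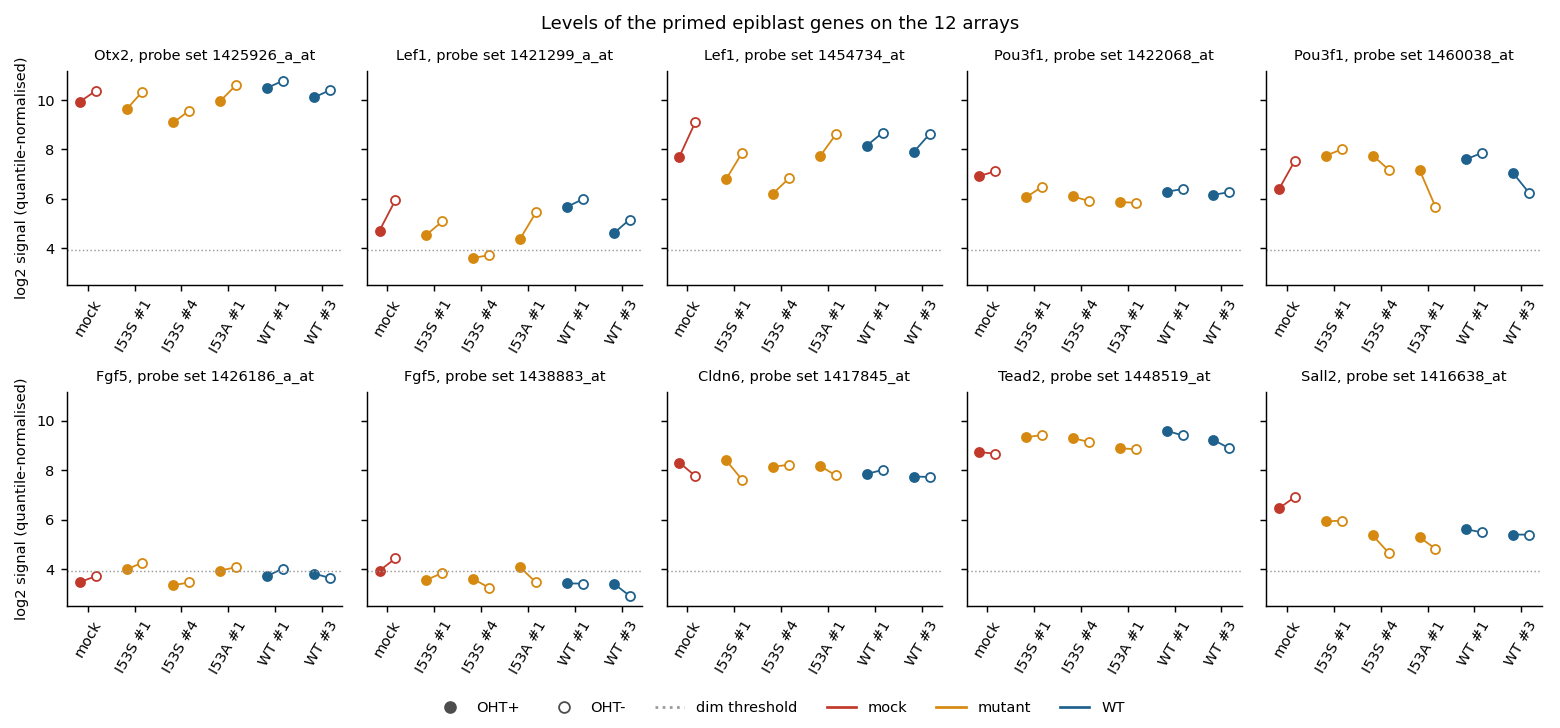
Log2 signal (quantile-normalised, vertical axis) of the 10 probe sets in the 6 lines, filled for OHT+ and open for OHT-, joined within a line, in red for mock, orange for mutant and blue for WT; the dotted line is the dim threshold at 3.94. Otx2 and both Lef1 probe sets are lower after OHT in every line, while both Fgf5 probe sets lie between 2.92 and 4.44, around the dotted line.

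Otx2, a homeodomain factor of the primed epiblast and later of the forebrain, was measured by 1 bright probe set (1425926_a_at). It read 9.92 after and 10.37 before OHT in the mock line. In the mutant lines it read 9.63 after and 10.34 before in I53S #1, 9.09 after and 9.57 before in I53S #4, and 9.96 after and 10.61 before in I53A #1. In the WT lines it read 10.49 after and 10.78 before in #1, and 10.10 after and 10.40 before in #3. The signal was lower after OHT in each of the 6 lines. The changes were -0.72, -0.48 and -0.66 in the 3 mutant lines and -0.29 and -0.29 in the WT lines. The I53S #4 line was the lowest at either time. In the mutant lines Otx2 fell by 0.62 on the log2 scale (SE 0.09, adjusted p = 0.0209 in limma, n = 3 lines), to 0.65 of the level before OHT. The change was -0.44 in the mock line (SE 0.16, adjusted p = 0.205) and -0.29 in the WT lines (SE 0.11, adjusted p = 0.632). The difference of mutant minus WT lines was -0.33 (95% interval -0.68 to 0.03, adjusted p = 0.433) and did not pass the test. Each mutant line fell further than either WT line, and the share of genes with such an order was not counted. The difference of mock minus mutant lines was 0.17 (-0.27 to 0.62, adjusted p = 0.870), and it was -0.13 with values as deposited.

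Lef1, which turns genes on or off with beta-catenin, was measured by 2 probe sets. The brighter one (1454734_at) read 7.70 after and 9.10 before OHT in the mock line. In the mutant lines it read 6.80 after and 7.86 before in I53S #1, 6.22 after and 6.83 before in I53S #4, and 7.72 after and 8.61 before in I53A #1. In the WT lines it read 8.15 after and 8.68 before in #1, and 7.89 after and 8.62 before in #3. All 6 lines were lower after OHT, and the mock line moved most. The dimmer probe set (1421299_a_at) lay above the dim threshold on 10 of 12 arrays, the exceptions being both arrays of I53S #4, and changed by -1.24 in the mock line, by -0.54, -0.11 and -1.08 in I53S #1, I53S #4 and I53A #1, and by -0.31 and -0.56 in WT #1 and #3. Its changes had the sign of the brighter probe set in 6 of 6 lines.

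Averaged over both probe sets, Lef1 fell in the mutant lines by 0.72 on the log2 scale (SE 0.14, adjusted p = 0.0429, n = 3 lines), to 0.61 of the level before OHT. It changed by -1.32 in the mock line (SE 0.24, adjusted p = 0.0678) and by -0.53 in the WT lines (SE 0.17, adjusted p = 0.579). The changes of the mutant lines (-0.80, -0.36 and -0.98) overlapped those of the WT lines (-0.42 and -0.64), and the mock line lay below all of them. The difference of mock minus mutant lines was -0.60 (95% interval -1.30 to 0.09, adjusted p = 0.681) and that of mutant minus WT lines -0.18 (-0.73 to 0.36). The difference of mock minus WT lines was -0.79 (-1.52 to -0.05, adjusted p = 0.322). On single probe sets the brighter one was called in the mutant lines (-0.86, adjusted p = 0.0300) and the dimmer one was not (-0.58, adjusted p = 0.171), where 3.76% of the 30374 probe sets were called. In the mock line 0% of probe sets were called by limma, 5357 having an unadjusted p under 0.05, and the brighter Lef1 probe set had an adjusted p of 0.0737.

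The 2 members called in the mutant lines both fell. In that comparison 6.46% of the 16432 genes were called in either direction and 1.55% were called lower. In the mock line 1.67% of genes were called and 0 of the 7 members by limma, with 2 at an unadjusted p under 0.05. In the WT lines 0% of genes and 0 members were called, with 1250 genes and 2 members at an unadjusted p under 0.05. Being lower after OHT in all 6 lines was shared by 6.27% of genes, and being higher in all 6 lines, which no member was, by 7.97%. Both mutant calls rested on few lines. Without I53S #1, I53S #4 or I53A #1 the adjusted p of Otx2 was 0.107, 0.0776 and 0.106, and that of Lef1 was 0.179, 0.0657 and 0.163. Without either WT line the call of Lef1 was also lost and that of Otx2 was kept. The mutant changes themselves could not move in the fits without a WT line, since each class has its own OHT effect. Without I53S #1, I53S #4 or I53A #1 the mutant change was -0.57, -0.69 and -0.60 for Otx2. For Lef1 it was -0.67, -0.89 and -0.58.

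**Figure D2:**
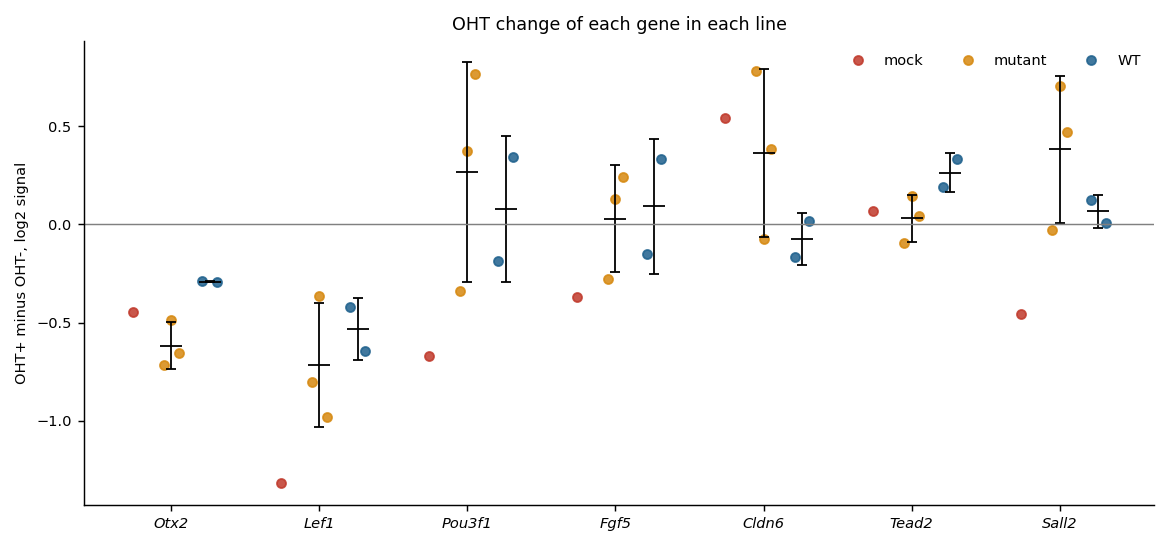
OHT+ minus OHT- in log2 signal (vertical axis) of the 7 genes in the mock line (red), the 3 mutant lines (orange) and the 2 WT lines (blue), each point being 1 line; black marks give the mean and SD over the lines of a class, and the mock class has 1 line. Otx2 and Lef1 lie below 0 in every line, whereas Pou3f1, Fgf5, Cldn6 and Sall2 have lines on either side of 0.

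**Figure D3:**
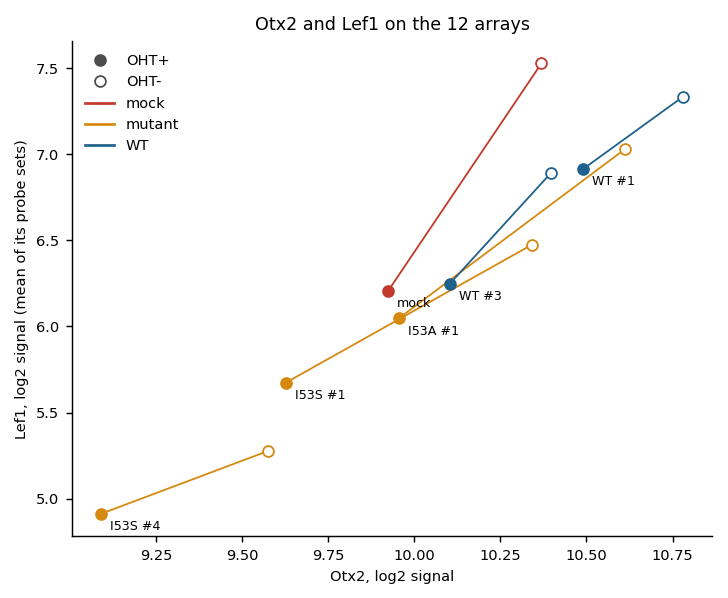
Log2 signal of Lef1 (mean of its probe sets, vertical axis) against that of Otx2 (horizontal axis) on the 12 arrays, filled after OHT and open before, with a line joining the arrays of each ESC line. Every line moves to the lower left after OHT, and I53S #4 is lowest for both genes at either time.

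Otx2 and Lef1 moved together over the arrays, with a Pearson r of 0.94 over the 12 arrays, which come in pairs from 6 lines and are not independent. Among the 21 pairs of members the next highest was 0.64, for Pou3f1 and Sall2. The plot of Lef1 against Otx2 shows both genes lower after OHT in each line. Before OHT the I53S #4 line was the lowest for both, whereas the mock line was the highest for Lef1 (7.53) but lay below WT #1, I53A #1 and WT #3 for Otx2 (10.37). The genes of the whole array whose levels followed Otx2 most closely were Cep78, a centrosomal protein (r = 0.97), and Ap3m1, a subunit of the AP-3 adaptor (r = 0.96). Those nearest to Lef1 were Msmo1, an enzyme of cholesterol synthesis (r = 0.96), and Fpgs, which adds glutamates to folates (r = 0.95).

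Pou3f1, a POU factor of the epiblast and of neural cells, was the member whose lines differed most in their OHT change. Its probe set 1460038_at read 6.39 after and 7.55 before OHT in the mock line. In the mutant lines it read 7.75 after and 8.00 before in I53S #1, 7.75 after and 7.18 before in I53S #4, and 7.17 after and 5.67 before in I53A #1. In the WT lines it read 7.60 after and 7.87 before in #1, and 7.03 after and 6.24 before in #3. The mock line was lower after OHT by 1.15 and the I53A #1 line higher by 1.50, and both the mutant and the WT class held lines of either sign. The other probe set (1422068_at) moved little, by -0.19 in the mock line, by -0.43, 0.18 and 0.03 in I53S #1, I53S #4 and I53A #1, and by -0.11 in WT #1 and in WT #3. The levels of the probe sets had an r of 0.16 over the 12 arrays, and their changes had the same sign in 5 of 6 lines. Averaged per gene, the change was -0.67 in the mock line (SE 0.39) and 0.27 in the mutant lines (SE 0.23), against 0.08 in the WT lines (SE 0.28). The difference of mock minus mutant lines was -0.94 (95% interval -2.05 to 0.17, adjusted p = 0.683). That interval holds 0 as well as a difference of -2.05.

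**Figure D4:**
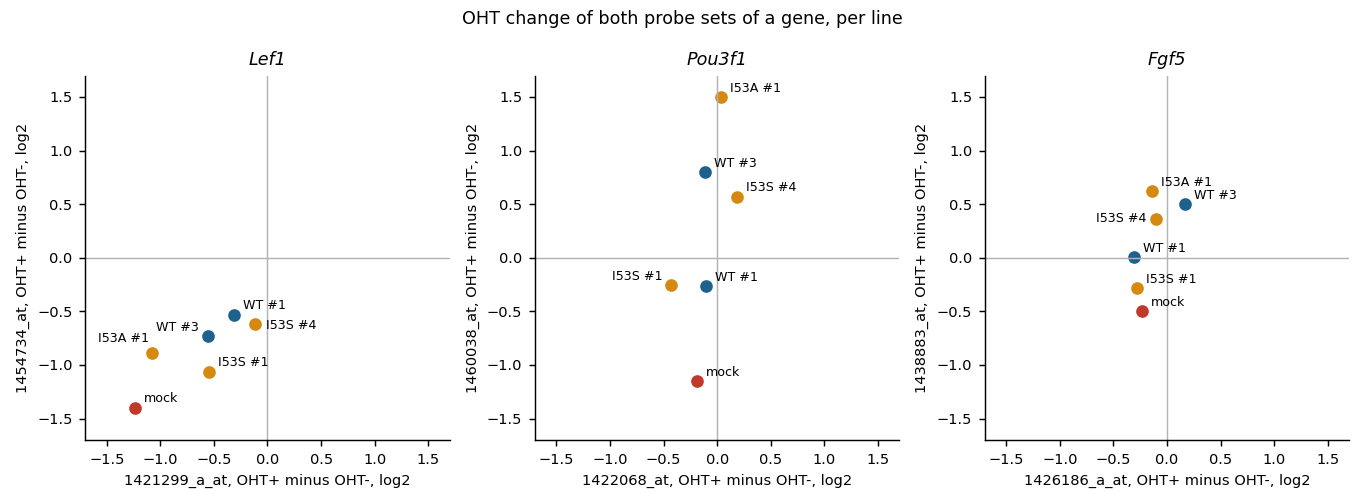
OHT+ minus OHT- in log2 signal of both probe sets of Lef1, Pou3f1 and Fgf5 plotted against each other, each point being 1 line in red for mock, orange for mutant and blue for WT. All Lef1 points lie at the lower left, while the Pou3f1 points spread from -1.15 to 1.50 on the vertical axis and within 0.43 of 0 on the horizontal one.

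Fgf5, the ligand that marks the early post-implantation epiblast, was at the dim end of the array in these cells. Its probe set 1426186_a_at exceeded the dim threshold on 4 of 12 arrays and its probe set 1438883_at on 2 of 12. The first read 3.47 after and 3.71 before OHT in the mock line, 3.99 after and 4.27 before in I53S #1, 3.35 after and 3.46 before in I53S #4, 3.94 after and 4.08 before in I53A #1, 3.72 after and 4.03 before in WT #1, and 3.82 after and 3.65 before in WT #3. All of these lay within 0.60 of the threshold. The second read 3.94 after and 4.44 before OHT in the mock line, 3.56 after and 3.84 before in I53S #1, 3.61 after and 3.24 before in I53S #4, 4.08 after and 3.46 before in I53A #1, 3.42 after and 3.42 before in WT #1, and 3.42 after and 2.92 before in WT #3. Here the mock array before OHT was the highest and the WT #3 array before OHT the lowest. Their changes had the same sign in 3 of 6 lines and their levels an r of 0.12. The averaged change was -0.37 in the mock line (SE 0.26) and 0.03 in the mutant lines (SE 0.15), against 0.09 in the WT lines (SE 0.18), and the mutant value was -0.17 on the first probe set alone. No change of Fgf5 passed the test, and with signals so close to the threshold a fall would be hard to see.

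Sall2, like the other members except Cldn6, had a wider range between lines before OHT than its OHT change in any line. It read 6.47 after and 6.92 before OHT in the mock line. In the mutant lines it read 5.93 after and 5.96 before in I53S #1, 5.37 after and 4.66 before in I53S #4, and 5.29 after and 4.82 before in I53A #1. In the WT lines it read 5.61 after and 5.49 before in #1, and 5.40 after and 5.40 before in #3. The mock line was above every other line at either time. Before OHT the difference of mock minus mutant lines was 1.77 (95% interval 0.66 to 2.88, n = 1 and 3 lines), a 3.42-fold higher signal, but among 16432 genes it did not pass the test (adjusted p = 0.741). The change was -0.46 in the mock line (SE 0.26, adjusted p = 0.404) and 0.38 in the mutant lines (SE 0.15, adjusted p = 0.205), against 0.07 in the WT lines (SE 0.19). The difference of mock minus mutant lines, -0.84 (-1.59 to -0.09), was the only one of the 7 whose own interval left out 0, and its adjusted p was 0.594.

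Cldn6 and Tead2 varied least between the lines before OHT. Cldn6 read 8.31 after and 7.77 before OHT in the mock line, 8.40 after and 7.62 before in I53S #1, 8.15 after and 8.22 before in I53S #4, 8.18 after and 7.80 before in I53A #1, 7.85 after and 8.02 before in WT #1, and 7.75 after and 7.73 before in WT #3. After OHT the WT lines read lowest, whereas before OHT the classes overlapped, and the share of genes with such an order was not counted. The change of Cldn6 was 0.54 in the mock line (SE 0.29, adjusted p = 0.374) and 0.36 in the mutant lines (SE 0.17, adjusted p = 0.267), against -0.07 in the WT lines (SE 0.21). The difference of mutant minus WT lines was 0.44 (95% interval -0.22 to 1.10). Tead2 read 8.74 after and 8.67 before OHT in the mock line, 9.34 after and 9.43 before in I53S #1, 9.30 after and 9.15 before in I53S #4, 8.89 after and 8.85 before in I53A #1, 9.61 after and 9.41 before in WT #1, and 9.23 after and 8.89 before in WT #3. Its change was 0.07 in the mock line (95% interval -0.33 to 0.47) and 0.03 in the mutant lines (-0.20 to 0.26), against 0.26 in the WT lines (-0.02 to 0.55), and the first 2 of these turned negative with values as deposited.

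Before OHT, when endogenous Ring1B was still present in all lines, the members already differed between lines. The range over the 6 lines was 2.25 for Lef1 and 2.26 for Sall2, 1.57 for Pou3f1, 1.21 for Otx2, 0.79 for Fgf5, 0.76 for Tead2 and 0.60 for Cldn6. For Lef1 the order was mock (7.53), WT #1 (7.33), I53A #1 (7.03), WT #3 (6.89), I53S #1 (6.47) and I53S #4 (5.28), and with 1 array per line neighbours in this order cannot be separated. That range is wider than the OHT change of Lef1 in any line. For Lef1 before OHT, mock minus mutant lines was 1.27 (95% interval -0.13 to 2.66) and mutant minus WT lines was -0.85 (-1.96 to 0.25). Of the 16432 genes 0% were called for mock minus mutant and 0% for mutant minus WT lines before OHT by limma, with 1023 and 862 at an unadjusted p under 0.05, and of the members 1 and 0 were under that value.

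For the differences of OHT changes between classes, which the design of the lines addresses most directly, 0% of genes were called for mock minus mutant, 0% for mutant minus WT and 0% for mock minus WT lines, with 1322, 2066 and 2360 genes at an unadjusted p under 0.05. Of the 7 members 1, 0 and 1 were under that value, namely Sall2 for mock minus mutant and Lef1 for mock minus WT lines. In the mock line 5 of 7 members were below 0 and their median change was -0.44, against a median of 0.00 over all genes. In the mutant lines 2 of 7 were below 0 with a median of 0.03, against -0.01 over all genes. In the WT lines 3 of 7 were below 0 with a median of 0.07, against 0.00 over all genes. The members thus held both signs in every class.

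**Figure D5:**
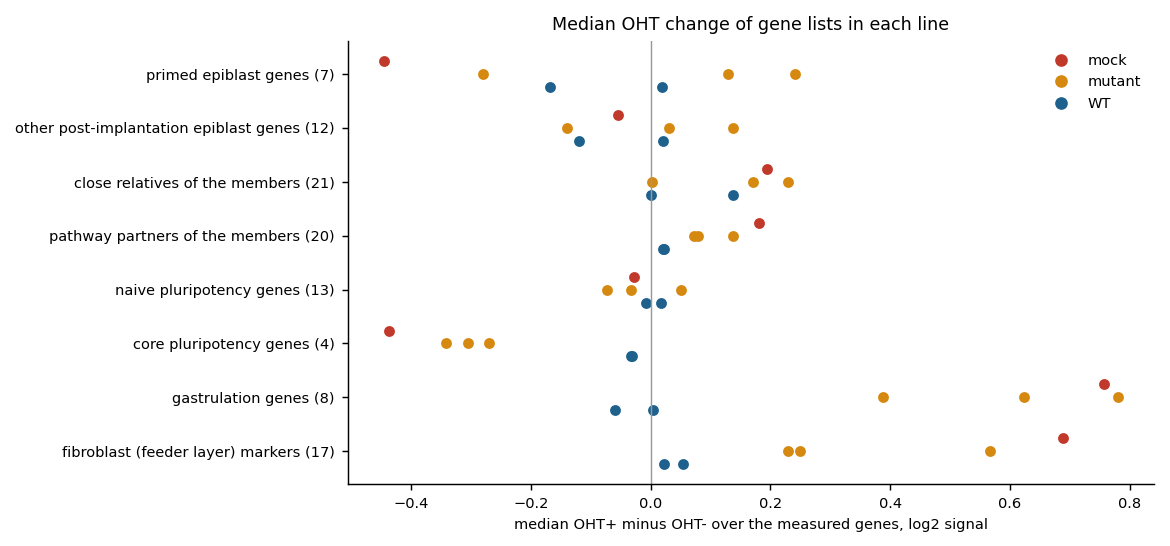
Median OHT+ minus OHT- in log2 signal (horizontal axis) over the measured genes of each list (number in brackets), each point being 1 line in red for mock, orange for mutant and blue for WT. The primed epiblast genes spread from -0.44 in the mock line to 0.24 in I53A #1, whereas gastrulation genes lie between 0.39 and 0.78 in the mock and mutant lines and near 0 in the WT lines.

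Other genes of the post-implantation epiblast moved in both directions. Of 12 measured, 2 rose and 2 fell in the mutant lines, where 6.46% of all genes were called. Sfrp2, a secreted Wnt antagonist, rose by 1.30 (adjusted p = 0.00617) and Cdh2, the cadherin gained when epithelial cells become mesenchymal, by 0.80 (adjusted p = 0.0207). Sfrp2 was also higher after OHT in the WT lines, by 0.45 and 0.42 in #1 and #3. Dnmt3a, a de novo DNA methyltransferase, fell by 0.58 (adjusted p = 0.0222) and Zic5, a zinc finger factor, by 0.70 (adjusted p = 0.0470). In the mock line, where limma called none of the 12, Sfrp2 changed by 1.06, Cdh2 by 0.31, Dnmt3a by -0.86 and Zic5 by -1.41. The median over the 12 genes was -0.05 in the mock line and 0.04 in the mutant lines, against -0.04 in the WT lines. The genes of gastrulation follow the primed state in the embryo, and 8 of 8 were above 0 in the mock line and 6 of 8 in the mutant lines, against 4 of 8 in the WT lines. Of these, 3 rose in the mutant lines, Fgf8 by 1.48 (adjusted p = 0.00617), Gsc by 1.37 (adjusted p = 0.0111) and Eomes by 0.82 (adjusted p = 0.0144). In the mock line, where 1.67% of all genes were called, 1 rose, the endoderm factor Foxa2 by 1.88 (adjusted p = 0.0329). Before OHT Fgf8 lay below the dim threshold of 3.94 in the 3 mutant lines (3.69, 3.59 and 3.65) and Gsc in both I53S lines (3.74 and 2.96), so the sizes of these changes start from signals near background and are uncertain. Fgf8 was also higher after OHT in the WT lines, by 0.26 and 0.64 in #1 and #3. There Gsc changed by 0.55 and -0.05, and Eomes by -0.41 and -0.07. The median change of the gastrulation genes was 0.76 in the mock line and 0.66 in the mutant lines, against -0.01 in the WT lines.

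Genes of the naive state did not move as a body. Of 13 measured, Dppa3 (Stella) rose by 1.05 (adjusted p = 0.00663) and Klf4 by 0.55 (adjusted p = 0.0354) in the mutant lines, where 6.46% of all genes were called. Nr0b1 (Dax1) fell there by 1.32 (adjusted p = 0.00550). In the mock line, where 1.67% of all genes were called, Dppa3 rose by 1.07 (adjusted p = 0.0430) and Nr0b1 fell by 1.49 (adjusted p = 0.0329). Their median was -0.03 in the mock line and 0.04 in the mutant lines. None of the 4 core pluripotency genes was called by limma. Their line medians were -0.44 in the mock line and -0.34 to -0.27 in the mutant lines, against -0.03 in both WT lines. Sox2, for instance, changed by -0.59 in the mock line (adjusted p = 0.118) and by -0.33 in the mutant lines (adjusted p = 0.0884).

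Among close relatives of the members, called genes included some that moved opposite to their relative. Otx1, the paralogue of Otx2, rose by 2.72 in the mock line (adjusted p = 0.0329) and by 2.00 in the mutant lines (adjusted p = 0.00617), while Otx2 fell in the mutant lines. Its change was 0.27 and 0.67 in the WT lines. Before OHT Otx1 lay below the dim threshold in the mock line (3.15) and in I53S #1, I53S #4 and I53A #1 (3.20, 3.59 and 3.53), so the size of its change is uncertain as well. Fgf8 rose as above, with Fgf5 near background. Sall1, a relative of Sall2, fell in the mutant lines by 0.69 (adjusted p = 0.0421). Of 21 relatives these 3 were called in the mutant lines, where 6.46% of all genes were called. In the mock line 1 was called, Otx1, against 1.67% of all genes. Among 20 partners of the same pathways, Axin2 rose by 1.06 (adjusted p = 0.0210) and Sp5 by 0.68 (adjusted p = 0.0186) in the mutant lines. Both are target genes of Wnt and beta-catenin, the pathway in which Lef1 acts. Etv5, an ETS factor induced by FGF signalling, fell by 0.67 (adjusted p = 0.0178). No Hippo partner of Tead2 (Yap1, Wwtr1, Ccn1, Ccn2, Amotl2 or Lats2) was called in any class by limma.

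Leaving out 1 line in turn, the mutant calls of Sfrp2, Fgf8, Dppa3, Nr0b1 and Otx1, and of the neural marker Zic1, were kept in 6 of 6 fits. Those of Cdh2, Dnmt3a, Eomes, Etv5, Axin2 and Sp5, and of Thy1, Krt18 and B2m among the markers described next, were lost whichever mutant line was left out, and that of Gsc without I53S #1 (adjusted p = 0.0752) or I53S #4 (adjusted p = 0.0719). That of Gata3 was also lost without either I53S line. Those of Zic5, Klf4 and Sall1, and of the markers Gata6, Col4a1, Krt8 and Lox, were lost whichever WT or mutant line was left out. The highest adjusted p in these fits was 0.194, for Zic5. The mock calls of Foxa2, Dppa3, Nr0b1 and Otx1, and of Gata6, Col4a1, Thy1 and Zic1, were lost in 5 of 5 fits, with adjusted p between 0.0527 and 0.0943.

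Markers of other cells moved with the same classes, and their part in the changes of the members was not tested. The median change of the 17 fibroblast markers was 0.69 in the mock line, 0.57, 0.25 and 0.23 in I53S #1, I53S #4 and I53A #1, and 0.02 and 0.05 in WT #1 and #3. Thy1 rose in the mock line by 1.32 (adjusted p = 0.0366) and in the mutant lines by 0.68 (adjusted p = 0.0186), and Lox in the mutant lines by 0.49 (adjusted p = 0.0422). No marker of the list is at 0 on these arrays, whose scale has no zero. For the 10 primitive endoderm markers the median was 0.90 in the mock line and 0.41 in the mutant lines, against -0.03 in the WT lines, with Gata6 and Col4a1 called higher in both the mock and mutant classes and Foxa2 in mock alone. Before OHT all 10 were lower in the mock than in the mutant lines, with a median difference of -0.88. After OHT their mean log2 level was 6.23 in the mock line and 6.15 to 6.56 in the mutant lines. The median change of the 8 trophectoderm markers was 0.91 in the mock line, 0.52 in the mutant lines and 0.06 in the WT lines. Eomes, Gata3, Krt8 and Krt18 were called higher in the mutant lines. Gata3 was also higher after OHT in the WT lines, by 0.77 and 1.35 in #1 and #3. For the 7 neural progenitor markers the median change was 0.43 in the mock line, 0.15 in the mutant and -0.03 in the WT lines. Zic1 was called higher in both the mock and mutant classes. Before OHT Gata3 lay below the dim threshold in the 3 mutant lines, and Zic1 in these and in the mock line. Otx2 and Lef1 were lower after OHT in every line, and a part of fibroblast content in this was not tested. Of 7 housekeeping genes, B2m alone was called, higher by 0.68 in the mutant lines (adjusted p = 0.0254).

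The patterns nearest to the other members over the 12 arrays were those of Ptprg, a receptor phosphatase, for Pou3f1 (r = 0.96), Abcd3, a peroxisomal transporter, for Cldn6 (r = 0.93), Brpf3 for Sall2 (r = 0.94), Slc15a2, a peptide transporter, for Fgf5 (r = 0.89) and Lage3 for Tead2 (r = 0.88). The second nearest were Htra2 (r = 0.87), St6galnac4 (r = 0.91), Ppm1g (r = 0.94), Sema6c (r = 0.88) and Nosip (r = 0.87), in the same order of members. These genes were picked out of 16432 for the highest r and the arrays share their lines in pairs.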

How the data were processed

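The table deposited by the authors holds a log2 signal for each of 45101 probe sets on each array. The submitters' processing notes name RMA and Affymetrix Expression Console, without versions, whereas the supplementary methods describe MAS5 signals with quantile normalisation, and which of these made the values is not settled. No column was left out as unmapped (0). Array medians as deposited ran from 4.66 to 5.69, so the 45037 probe sets other than the 64 controls were quantile-normalised. Probe sets with 1 gene symbol (34945, against 932 with several and 9160 with none listed) and a highest signal above 3.94 were kept (30374) and averaged per gene (16432). T, Tcf7 and Lin28b, among others on the lists, were not used here.

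All 12 arrays were fitted in R 4.3.3 with limma 3.58.1 (lmFit and eBayes, two-sided, residual degrees of freedom 3, prior 2.79). Each line was a block, and each class had its own OHT effect. The 6 arrays before OHT were fitted by class. Benjamini-Hochberg adjustment ran over all genes tested, and a gene was called where its adjusted p was below 0.05. P-values measure only the spread between these lines, and the mock class, with 1 line, takes its spread from the others. Precision is limited by how few arrays there are. Arrays are paired by cell line. As a check, the deviations of both arrays of a line from their class means correlated at 0.36 to 0.43 for mutant and 0.27 for WT lines. No array copied another (r between arrays 0.973 to 0.990). The fit was tested on simulated data with independent noise and no differences between lines, so the pairing of arrays was not part of that test.

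The members and the lists of other genes were chosen with earlier results of these data known. Named are all members, every called gene of a list (with over 4 called, the 3 of greatest change) or, with none called, the gene of smallest p where shown, all called markers of other cell types, and the 2 genes of highest correlation with each member. The Hippo partners without a call were named after their values were seen. Alternatives were values as deposited, arrays centred on their medians, the brightest probe set, 2 other filters, the I53S lines alone, no replicate block, trended and robust priors, a log2 change over 0.5 and each line left out. Promoter sequences are from RefSeq (GRCm38.p6).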

Additional observations from a re-analysis of the deposited data

Results flagged for a closer look

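The OHT change of Sall2 lay below 0 in the mock line and above 0 in the WT lines, in WT #3 by only 0.01. The mock line was lower after OHT (-0.46) while both WT lines were above 0 (0.13 and 0.01), a difference of mock minus WT lines of -0.52 (SE 0.32). This was picked out because every line of either class lay on its own side of 0, and how many genes did so was not counted. With limma the difference did not pass the test (95% interval -1.32 to 0.27, adjusted p = 0.515, and 0.162 to 0.933 over the alternatives). With values as deposited the WT #3 line was at -0.08.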

How the results depend on the processing

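Of 734 member values under alternatives, 677 kept their direction and their side of the threshold, 12 lost a call, 6 gained one and 39 changed sign. Of the 7 members, 2 were called in the mutant lines, and 0 with no replicate block (adjusted p = 0.356 for Otx2 and 0.492 for Lef1) or with the I53S lines alone. With each line left out the count was 0 to 2, at 0 without any mutant line, 1 without either WT line and 2 without the mock line. In the mock line 0 were called, against 2 with values as deposited (Otx2, adjusted p = 0.0474, and Lef1, 0.0380) or with trended and robust priors (0.0283 and 0.00547), and 1, Lef1, with the brightest probe set (0.0496) or the filter on the mean (0.0147). The block changed no other call of a member.

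With values as deposited the median of all genes moved by -0.34 in the mock line and -0.13 in the mutant lines, against 0.01 in the WT lines, and calls went 175 higher and 747 lower in the mock line, against 212 and 63 after quantile normalisation, and 540 and 571 in the mutant lines, against 807 and 255. That setting turned the OHT change of Tead2 to -0.31 in the mock line, and in the mutant lines that of Tead2 to -0.0801 and of Fgf5 to -0.16. It turned mock minus mutant lines to -0.13 for Otx2, -0.0817 for Cldn6 and -0.23 for Tead2, and before OHT mutant minus WT lines to 0.10 for Pou3f1, 0.15 for Tead2 and 0.10 for Sall2. Centred arrays turned Fgf5 in the mutant lines to -0.0259 and, before OHT, Cldn6 to 0.0505 for mock minus mutant and -0.22 for mutant minus WT lines. The brightest probe set turned Fgf5 to -0.17 in the mutant and -0.0660 in the WT lines and to -0.22 for mock minus mutant lines before OHT. The I53S lines alone turned Fgf5 in the mutant class to -0.0752, mutant minus WT lines for Pou3f1 to -0.0618 and, before OHT, to 0.21 for Pou3f1 and 0.14 for Tead2.

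Leaving out 1 line in turn, the OHT change ran from -0.0752 to 0.19 for Fgf5 and -0.0265 to 0.0938 for Tead2 in the mutant lines, and from -0.15 to 0.34 for Fgf5, -0.19 to 0.34 for Pou3f1 and -0.17 to 0.0195 for Cldn6 in the WT lines. Mock minus mutant lines ran from -0.0385 to 0.39 for Cldn6 and -0.0254 to 0.0949 for Tead2, and mutant minus WT lines from -0.30 to 0.18 for Fgf5 and -0.0771 to 0.49 for Pou3f1. Before OHT mock minus mutant lines ran from -0.11 to 0.41 for Otx2 and -0.24 to 0.0635 for Cldn6, and mutant minus WT lines from -0.61 to 0.26 for Pou3f1, -0.17 to 0.15 for Cldn6 and -0.27 to 0.25 for Tead2. Otx2 and Lef1 stayed lower in the mutant lines in every alternative run. Since each mutant line was lower with each scaling, leaving out a line could not change that. The cause of these shifts was not tested. With all genes, mock calls ranged from 0 (whichever mutant or WT line was left out, or with the I53S lines alone) to 1340 (trended and robust priors), against 275, and mutant calls from 153 (without I53A #1) to 2219 (trended and robust priors), against 1062. With those priors 1 gene was called for mock minus mutant, 272 for mutant minus WT and 453 for mock minus WT lines.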
